A study of Mus musculus with 4 samples.

Results

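The integrin genes of T cells comprised 10 of the 19555 genes listed for each library, taken by gene symbol: the α chain genes Itga4, Itga5, Itga6, Itga7, Itgae and Itgal and the β chain genes Itgb1, Itgb2, Itgb3 and Itgb7. Each of the 10 had a value in all 4 libraries. The libraries came from naive CD4+ T cells of spleen and lymph nodes of C57BL/6 mice, activated with IL-6 and TGF-β1 to become T helper 17 (Th17) cells and sequenced after 3 days in vitro. There was 1 library in each group: cells labelled Smad4 KO at 39.5 °C, cells labelled Smad4 KO at 37 °C, wild type (WT) cells at 39.5 °C and WT cells at 37 °C. How Smad4 was deleted, and how many animals gave each culture, was not stated in the sources at hand. Levels are RPKM, that is, reads divided by exon length and by library size. Levels of different genes can be set side by side only roughly, because reads over exon junctions may be missing.

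Integrins are adhesion receptors made of one α and one β chain, and a chain reaches the cell surface only with a partner. In T cells, αL with β2 forms LFA-1, which binds ICAM proteins on antigen-presenting cells and endothelium. The β7 chain pairs with α4 to bind MAdCAM-1 on gut vessels and with αE to bind E-cadherin on epithelium, while β1 pairs with many α chains to bind fibronectin, laminins and VCAM-1. TGF-β is known to raise αE in T cells and several integrins in turn activate latent TGF-β, and SMAD4 is the shared partner of the SMAD proteins that carry the TGF-β signal.

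Whole reads recovered from the RPKM values numbered 18047877 to 18474544 per library. Smad4 itself stood at 21.3 RPKM and 20.7 RPKM in the KO-labelled libraries at 39.5 and 37 °C, against 14.2 RPKM and 14.0 RPKM in WT at the same temperatures, so the targeted gene was higher under the KO label, and every genotype direction given here is that of the label. The T cell genes listed as markers (Cd3d, Cd3e, Cd3g, Cd4, Trac, Lck, Cd2 and Cd5) were all present, with summed levels of 2401 and 2583 RPKM in the KO-labelled libraries at 39.5 and 37 °C and 1817 and 1961 RPKM in WT. Cd5 (873.5 and 901 RPKM, against 488 and 731 RPKM in WT) and Cd2 (264 and 445 RPKM, against 161.5 and 158 RPKM) differed most in RPKM. Trac differed little (633.5 and 599 RPKM, against 624 and 564 RPKM). Cd3e was lower under the KO label at 39.5 °C (54.7 against 59.2 RPKM). Il17a, the gene of the signature Th17 cytokine, was at 79.7 and 32.6 RPKM under the KO label at 39.5 and 37 °C and at 686 and 134 RPKM in WT. Of 6 CD8 and NK cell genes 2 had values, summing to between 4.13 and 5.65 RPKM, and of 5 B cell genes 1 did, at 0.151 to 0.485 RPKM.

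Changes were described by the ratio of RPKM within each pair of libraries, with an exact Clopper-Pearson 95% interval that covers counting error only, because no group had a second library. A size rule of 2-fold was applied on log2(RPKM + 1) to the 13715 genes with a mean of at least 1 RPKM, of which 7 were integrin members; Itga4, Itgae and Itgb3 lay under that minimum. Itga7 passed it only through the libraries in which it was high, so the counts below describe the members and support nothing further. In addition, an additive limma fit of genotype label and temperature over all 13715 genes, with Benjamini-Hochberg adjustment, tested changes shared across the other factor. Its error is the departure from additivity in 4 libraries, not the spread between animals or cultures.

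With the KO label, RNA for the β7, β2 and α6 chains rose, RNA for the β1 chain fell, and RNA for the α7 chain was far higher. In the limma fit 4 members passed the test upwards (Itga7, Itgb7, Itgb2 and Itga6, with Itga7 tested only because it was high under the KO label) and 1 fell (Itgb1), while Itgal and Itga5 did not pass the test. Over all genes tested, 8.57% rose and 4.70% fell with the label. By the 2-fold rule, 2 of the 7 members (Itga7 and Itgb7) were higher under the KO label at 39.5 °C, where 2.30% of all genes were, and the same 2 were higher at 37 °C, where 4.70% were. No member was 2-fold lower at either temperature, against 1.05% of all genes at 39.5 °C and 1.14% at 37 °C. The median log2 ratio of the 7 members was 0.61 at 39.5 °C and 0.82 at 37 °C, beside 0.00 and −0.01 for all genes. With no minimum mean, when all 10 members entered, it was 0.36 at 39.5 °C and 0.49 at 37 °C. All 5 calls were lost when genes of every level entered the fit (adjusted p from 0.0546 to 0.0935), a setting in which 0 of 19555 genes were called, so that the calls given below for other genes were lost there too.

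**Figure D1:**
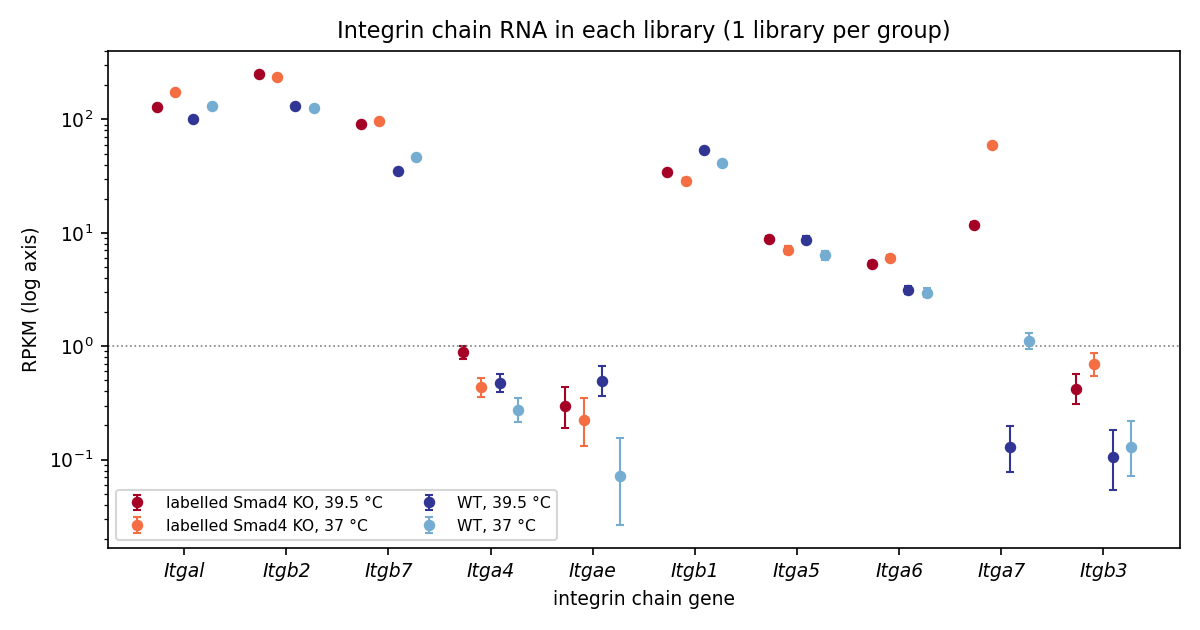
RPKM (log axis) of each integrin member in each of the 4 libraries, with 95% Poisson counting intervals; the dotted line marks 1 RPKM. Itgb2 and Itgal are the highest members in every library, Itga4, Itgae and Itgb3 stay under 1 RPKM, and Itga7 runs from 0.128 to 58.8 RPKM.

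Itga7 encodes α7, a laminin-binding chain best known from skeletal muscle, where it pairs with β1. Its level was 11.8 RPKM (1756 reads) and 58.8 RPKM (8398 reads) in the KO-labelled libraries at 39.5 and 37 °C, against 0.128 RPKM (20 reads) and 1.11 RPKM (164 reads) in WT at 39.5 and 37 °C. Within each label the 39.5 °C library was the lower one. The ratio of KO label to WT was 92.1 (59.4 to 151) at 39.5 °C and 52.9 (45.3 to 62.1) at 37 °C. The limma change with the label was 4.16 ± 0.31 SE on the log2 scale (adjusted p = 0.0078). Since Itga7 reached the minimum mean only through the KO-labelled libraries, in which it was high, this p is no independent support for the difference. Over the alternatives the adjusted p ranged from 3.04e-05 with a minimum of 5 RPKM to 0.0546 with no minimum mean. By rank among all 19555 genes it stood at 5812 and 1711 under the KO label and at 17629 and 13165 in WT, each at 39.5 and 37 °C. Of the 6 stromal genes listed as markers 5 had values, and they summed to 5.27 and 10.3 RPKM under the KO label against 2.55 and 3.66 RPKM in WT. Most of that was Pecam1 (4.82 and 9.48 RPKM against 1.49 and 2.74 RPKM), and Pdgfrb was also higher under the KO label. Col1a1 (0.257 and 0.406 RPKM against 0.474 and 0.477 RPKM), Col1a2 and Col3a1 were lower under the KO label at both temperatures. Col1a2 and Col3a1 were at 0 under the KO label at 39.5 °C. The part of these genes in the Itga7 difference was not tested. The gene lies on chromosome 10, positions 128933818 to 128958282 on the plus strand of GRCm38, and 0.1% of its exon sequence overlaps another annotated gene.

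The genes whose pattern over the 4 libraries came nearest to that of Itga7 were Lrrc32, Slc2a3 and Aldoc. Likeness was the Euclidean distance between profiles of log2(RPKM + 1), each centred on its own mean, which puts Lrrc32 at 0.39, Slc2a3 at 0.97 and Aldoc at 1.15. Lrrc32 encodes GARP, which carries latent TGF-β on the cell surface, and stood at 15.1 and 61.6 RPKM in the KO-labelled libraries at 39.5 and 37 °C, against 0.674 and 1.99 RPKM in WT. Aldoc, a glycolytic aldolase gene, was at 21.5 and 59.9 RPKM under the KO label and 1.64 and 5.28 RPKM in WT, in the same order of temperatures. A likeness over 4 libraries rests on few points.

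Itgb7 (chromosome 15, 102215995 to 102231944, minus strand) encodes β7, the chain of the gut-homing integrins. It was at 91.7 and 97.3 RPKM in the KO-labelled libraries at 39.5 and 37 °C and at 34.9 and 46.2 RPKM in WT. The ratio of KO label to WT was 2.63 (2.49 to 2.77) at 39.5 °C and 2.11 (2.004 to 2.21) at 37 °C, and the gene rose in the limma fit (log2 1.21 ± 0.13 SE, adjusted p = 0.0148). Its nearest patterns were those of Rnf213, Rab19 and Lrfn1, at distances of 0.094 to 0.097. Rab19 was at 2.52 and 2.41 RPKM under the KO label at 39.5 and 37 °C, against 0.329 and 0.697 RPKM in WT. Rab19 thus reached the minimum mean only through the KO-labelled libraries, and the added 1 RPKM is large beside its WT values.

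The α partners of β7 were scarce. Itga4, the α4 chain gene, had 0.882 RPKM (227 reads) and 0.434 RPKM (107 reads) under the KO label at 39.5 and 37 °C, and 0.474 RPKM (128 reads) and 0.275 RPKM (70 reads) in WT. Within each temperature the KO-labelled library was the higher, by a ratio of 1.86 (1.49 to 2.33) at 39.5 °C and 1.58 (1.16 to 2.16) at 37 °C, but the labels overlapped when temperatures were mixed. On the opposite strand, exons of Cerkl, which reached at most 0.0966 RPKM, overlap 8.0% of its exon length. Itgae, the αE (CD103) gene, had 0.296 RPKM (25 reads) and 0.223 RPKM (18 reads) under the KO label, and 0.497 RPKM (44 reads) and 0.0719 RPKM (6 reads) in WT, at 39.5 and 37 °C. Against Itga4 and Itgae summed, Itgb7 was 77.8 and 148 times as high in the KO-labelled libraries and 35.9 and 133 times as high in WT.

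Itgb1 (chromosome 8, 128685654 to 128733200, plus strand), the shared β1 chain gene, was the member that fell. It stood at 34.1 and 28.9 RPKM in the KO-labelled libraries at 39.5 and 37 °C, against 53.5 and 41.2 RPKM in WT. The ratio was 0.638 (0.607 to 0.670) at 39.5 °C and 0.701 (0.663 to 0.741) at 37 °C, with a limma log2 change of −0.57 ± 0.12 SE (adjusted p = 0.0418), a call that was also lost without a variance trend (adjusted p = 0.0505). Itgb7 was 2.69 and 3.37 times the level of Itgb1 under the KO label at 39.5 and 37 °C, and 0.652 and 1.12 times in WT.

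**Figure D2:**
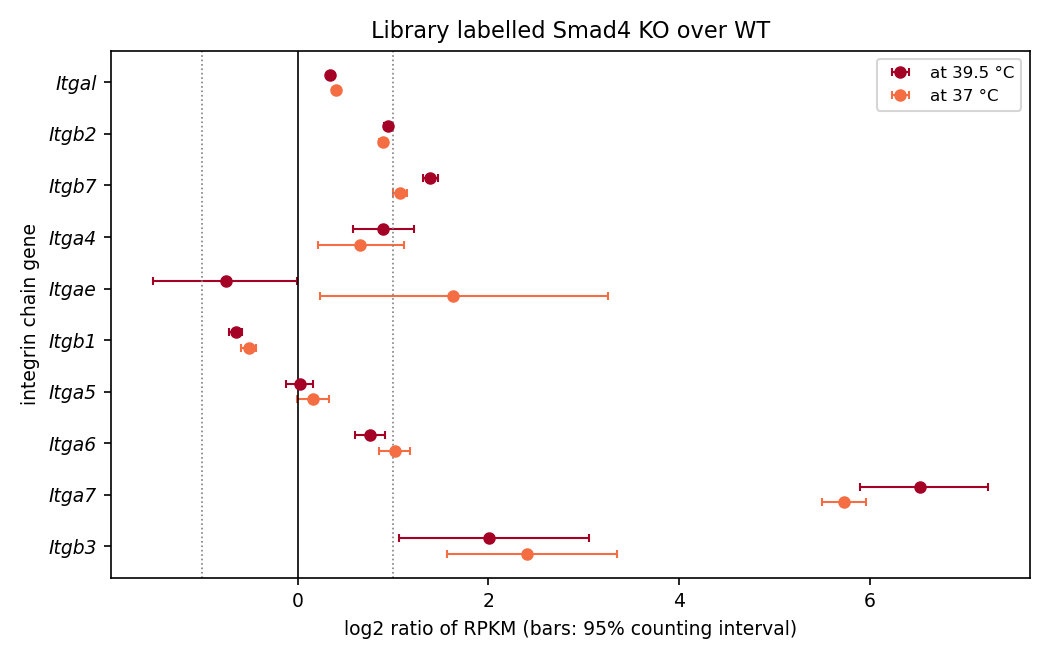
Log2 ratio of RPKM of the library labelled Smad4 KO over WT for each integrin member, at 39.5 °C and at 37 °C, with 95% counting intervals; dotted lines mark a 2-fold difference. Itga7 lies farthest right with ratios of 92.1 and 52.9, Itgb1 lies left of 0 at both temperatures, and Itgae lies on opposite sides of 0 at the 2 temperatures.

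As the 2 β chain genes called in opposite directions that had a promoter entry, Itgb7 and Itgb1 are shown by the 300 bases around their start (250 before and 50 after, RefSeq, GRCm38.p6). Capitals mark the SMAD box motif CAGAC and the ETS motif GGAAG on either strand, and no match overlaps another. Promoter entries matched 4 members: Itga4, Itga5, Itgb1 and Itgb7. The Itgb7 window is chr15:102231886-102232185 on the minus strand and the Itgb1 window chr8:128685404-128685703 on the plus strand.
Itgb7: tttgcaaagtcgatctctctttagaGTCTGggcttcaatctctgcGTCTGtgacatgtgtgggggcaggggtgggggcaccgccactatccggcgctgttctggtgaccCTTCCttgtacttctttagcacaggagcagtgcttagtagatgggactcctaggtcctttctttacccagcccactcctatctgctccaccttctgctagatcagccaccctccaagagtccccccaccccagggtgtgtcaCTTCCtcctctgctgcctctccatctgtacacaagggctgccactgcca
Itgb1: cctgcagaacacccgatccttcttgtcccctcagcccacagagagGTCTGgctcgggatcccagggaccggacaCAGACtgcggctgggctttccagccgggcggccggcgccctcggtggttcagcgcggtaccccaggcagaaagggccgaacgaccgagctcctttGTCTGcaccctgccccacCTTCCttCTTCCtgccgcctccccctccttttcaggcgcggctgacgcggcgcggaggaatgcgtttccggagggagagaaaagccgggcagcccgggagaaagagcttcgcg
The Itgb7 window held 2 CAGAC matches and the Itgb1 window 3, where 49.6% of 32851 promoter windows of this length hold at least 1. Each held 2 GGAAG matches, a motif found in 71.4% of windows. Their base composition differed more: the Itgb7 window was 56.3% G and C with 5 CG dinucleotides, and the Itgb1 window 67.3% with 27. A match is a string of letters and not a bound site.

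The LFA-1 chains were the most abundant members. Itgb2 (chromosome 10, 77530252 to 77565708, plus strand), the β2 chain gene, was at 250.5 and 235 RPKM in the KO-labelled libraries at 39.5 and 37 °C and at 130.3 and 126 RPKM in WT, a ratio of 1.92 (1.87 to 1.98) at 39.5 °C and 1.86 (1.81 to 1.92) at 37 °C. It rose in the limma fit (log2 0.91 ± 0.11 SE, adjusted p = 0.0148). Its partner Itgal was at 129 and 174 RPKM under the KO label and at 101 and 132 RPKM in WT, a ratio of 1.27 (1.24 to 1.30) at 39.5 °C and 1.32 (1.29 to 1.35) at 37 °C. Itgal did not pass (log2 0.37 ± 0.11 SE, adjusted p = 0.0832), and its lower KO-labelled value lay under its higher WT value. β2 is found on all leukocytes; of the 7 myeloid genes listed as markers, 4 had a value, and they summed to 0.338 and 0.654 RPKM under the KO label against 1.63 and 1.07 RPKM in WT, with Itgax and Cd14 at 0 in WT at 37 °C. The summed T cell markers given above were also higher under the KO label, by unequal amounts and with Cd3e lower at 39.5 °C. The part of these markers in the result was not tested. In bulk RNA, more cells of a kind and more RNA per cell cannot be told apart.

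The remaining α partners of β1 differed from each other. Itga6, the laminin-binding α6 chain gene, was at 5.31 and 6.02 RPKM in the KO-labelled libraries and at 3.14 and 2.97 RPKM in WT at 39.5 and 37 °C. Its ratio of KO label to WT was 1.69 (1.52 to 1.88) at 39.5 °C and 2.02 (1.81 to 2.26) at 37 °C, under 2-fold on log2(RPKM + 1), and it rose in the limma fit (log2 0.71 ± 0.14 SE, adjusted p = 0.0327). Itga5, the fibronectin-binding α5 chain gene, was at 8.83 and 7.06 RPKM under the KO label and at 8.69 and 6.32 RPKM in WT. Its ratio of KO label to WT was 1.02 (0.921 to 1.12) at 39.5 °C, which turns to a log2 ratio of −0.04 with upper quartile scaling, and 1.12 (0.994 to 1.25) at 37 °C. Both intervals held 1, and the limma change was 0.08 ± 0.13 SE (adjusted p = 0.689).

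Itgb3, the β3 chain gene of platelet and vitronectin receptors, was near the bottom in every library. It had 0.423 RPKM (46 reads) and 0.692 RPKM (72 reads) under the KO label at 39.5 and 37 °C and 0.105 RPKM (12 reads) and 0.130 RPKM (14 reads) in WT, which gave ratios of 4.02 (2.10 to 8.34) at 39.5 °C and 5.31 (2.97 to 10.2) at 37 °C. Of the 8 platelet and erythroid genes listed as markers, Itga2b and Hba-a1 had values, and their sum was 0.620 and 0.223 RPKM in the KO-labelled libraries and 0.178 and 0.206 RPKM in WT. Their part in the Itgb3 difference was not tested.

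Outside the members, 10 other integrin chain genes had values, and Itga3 and Itgav reached a mean of 1 RPKM. Itga3, the gene of another laminin-binding chain that pairs with β1, was at 22.8 and 26.5 RPKM in the KO-labelled libraries at 39.5 and 37 °C and at 9.62 and 10.4 RPKM in WT, and rose (log2 1.22 ± 0.12 SE, adjusted p = 0.0140). Itgav, whose αV chain takes part in activating latent TGF-β, was at 2.17 and 2.07 RPKM under the KO label and at 2.73 and 1.67 RPKM in WT (log2 −0.01 ± 0.17 SE, adjusted p = 0.960).

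Summed over the 13 α chain genes with values, the KO-labelled libraries held 182 and 276 RPKM at 39.5 and 37 °C, and WT held 128 and 156 RPKM. Itga7 made up 6.48% and 21.3% of that sum under the KO label, and 0.1% and 0.71% in WT. The 7 β chain genes summed to 377 and 364 RPKM under the KO label and to 219 and 214 RPKM in WT. Itgb1 made up 9.05% and 7.94% of the β sum in the KO-labelled libraries, against 24.4% and 19.2% in WT. The 9 α genes with values that can pair with β1 summed to 1.55 and 3.52 times the Itgb1 level under the KO label, and to 0.482 and 0.568 times in WT. Without Itga7 they summed to 41.1 and 42.9 RPKM under the KO label, above the 34.1 and 28.9 RPKM of Itgb1 there, and to 25.7 and 22.3 RPKM in WT.

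**Figure D3:**
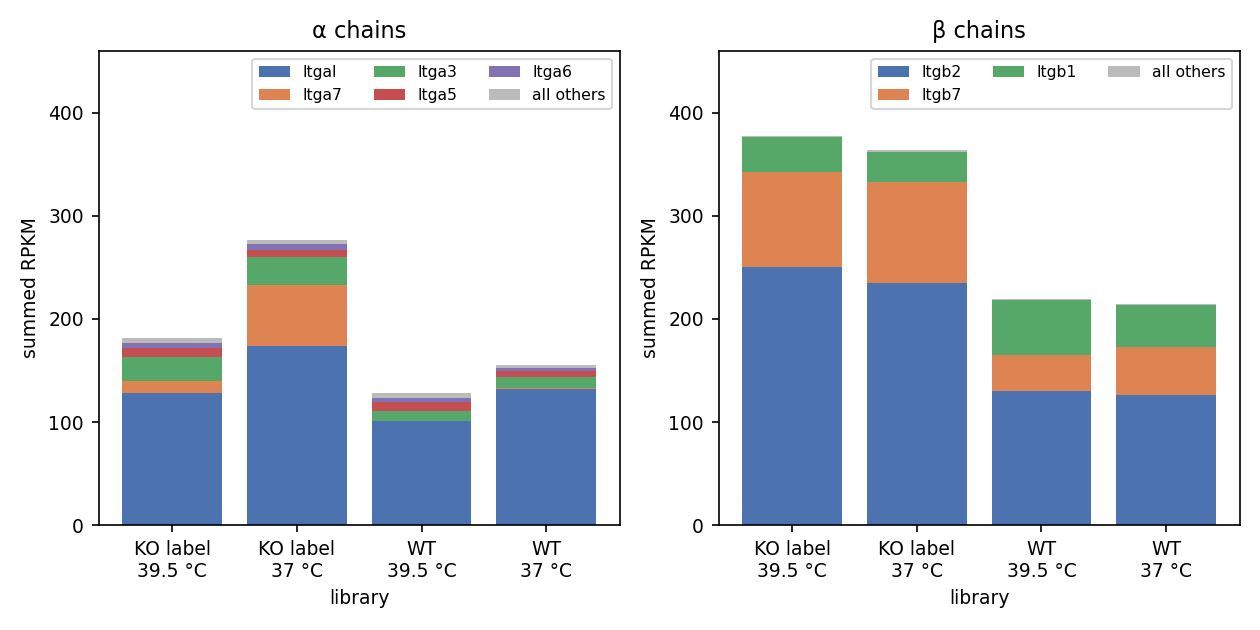
Summed RPKM of the α chain genes (left) and β chain genes (right) in each library, stacked by gene. The β1 share is 9.05% and 7.94% in the KO-labelled libraries and 24.4% and 19.2% in WT, and Itga7 is a visible share of the α sum under the KO label.

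Temperature gave 1 member past the size rule, Itga7, and none past the test. In the limma fit 0 members passed for temperature, and 3 (Itga7, Itgal and Itga5) had an unadjusted p under 0.05. Among all genes 0.0146% rose and 0.00729% fell with temperature. By the 2-fold rule, 1 of 7 members, Itga7, was lower at 39.5 °C in the KO-labelled libraries, where 0.911% of all genes were, and 0 were higher, against 0.751%. In WT 0 members were 2-fold higher, against 1.46% of genes, and 0 were 2-fold lower, against 0.525%. With a pseudocount of 0.1, Itga7 was past 2-fold in WT as well. The median log2 ratio of 39.5 over 37 °C over the 7 members was −0.08 in the KO-labelled libraries and 0.05 in WT, beside −0.01 and −0.02 for all genes. Neither direction held with a minimum mean of 5 RPKM, which gave 0.0026 in the KO-labelled libraries and −0.17 in WT.

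Itga7 was 4.99-fold lower (4.74 to 5.26) at 39.5 °C under the KO label and 8.69-fold lower (5.45 to 14.6) in WT, by RPKM. Its limma change with temperature was −1.57 ± 0.31 SE (adjusted p = 0.140), and it passed with a pseudocount of 0.1 (adjusted p = 0.0279), with a minimum mean of 5 RPKM (0.0182) and with limma-voom on recovered reads (0.0035). Since Itga7 entered the fit only through the KO-labelled libraries, these p-values too are no independent support for the drop. The drop was larger under the KO label on log2(RPKM + 1), at −2.23 against −0.91 in WT, but larger in WT as a ratio of RPKM, because the added 1 RPKM is large beside the WT values. That difference between labels therefore had no fixed direction. Over the 7 members the median difference, KO label minus WT, was −0.12 on log2(RPKM + 1), and it was not tested.

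Of the other 6 members in the fit, 5 had the same direction of temperature ratio in both labels. The ratio of 39.5 over 37 °C for Itgal was 0.738 (0.722 to 0.753) under the KO label and 0.767 (0.750 to 0.785) in WT, with a limma change of −0.41 ± 0.11 SE (adjusted p = 0.222). For Itgb1 it was 1.18 (1.12 to 1.25) under the KO label and 1.30 (1.24 to 1.36) in WT (adjusted p = 0.364). Itga5 had 1.25 (1.13 to 1.39) under the KO label and 1.38 (1.24 to 1.53) in WT (adjusted p = 0.318). Itgb7 had 0.942 (0.905 to 0.981) under the KO label and 0.756 (0.711 to 0.804) in WT (adjusted p = 0.502), and Itgb2 had 1.06 (1.04 to 1.09) and 1.03 (0.999 to 1.07). Itga6 was at 0.883 (0.805 to 0.969) under the KO label and 1.06 (0.934 to 1.20) in WT, on opposite sides of 1 with a WT interval that holds 1.

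Among the low members, Itga4 was higher at 39.5 °C in both labels, with ratios of 2.03 (1.61 to 2.58) under the KO label and 1.73 (1.28 to 2.34) in WT. Itgae had a ratio of 1.33 (0.697 to 2.59) under the KO label and 6.92 (2.94 to 19.9) in WT, the WT value on 44 reads against 6. Itgb3 was at 0.612 (0.413 to 0.898) and 0.809 (0.342 to 1.88). These 3 genes were below the minimum mean and were not in the fit.

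**Figure D4:**
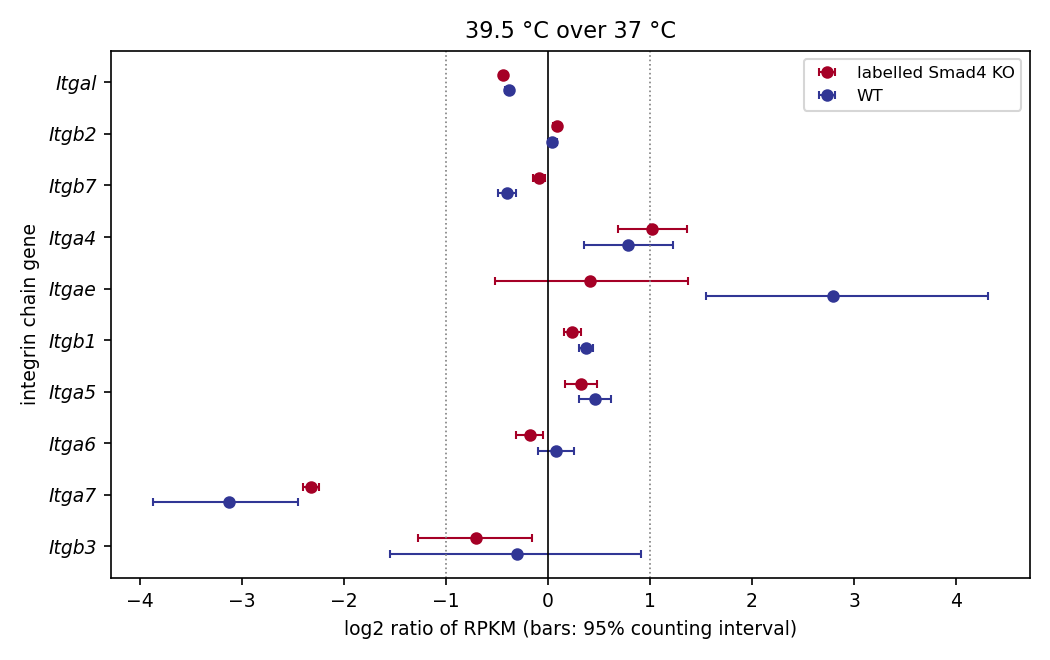
Log2 ratio of RPKM at 39.5 °C over 37 °C for each integrin member, in the KO-labelled libraries and in WT, with 95% counting intervals; dotted lines mark a 2-fold difference. Itga7 lies left of −1 in both labels, Itga4 lies right of 0 in both, and the members above 1 RPKM in all libraries lie within the dotted lines.

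Itgb2 and Itgal held the first 2 places in every library. In the KO-labelled libraries the order was Itgb2, Itgal, Itgb7, then Itgb1 and Itga7 at 39.5 °C, with Itga7 above Itgb1 at 37 °C. In WT the first 4 places went to Itgb2, Itgal, Itgb1 and Itgb7 at 39.5 °C, and at 37 °C to Itgal, Itgb2, Itgb7 and Itgb1. Neighbours whose counting intervals overlapped were found among genes under 1 RPKM: Itgb3 and Itgae under the KO label at 39.5 °C, Itgae and Itga4 and also Itga7 and Itgb3 in WT at 39.5 °C, and Itga4, Itgb3 and Itgae in turn in WT at 37 °C.

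Most listed genes that switch integrins into their binding state did not pass for the label, and those that did went in both directions. Of the 22 activators and adaptors listed, 21 had values and 17 entered the fit; 3 rose and 2 fell, beside 8.57% and 4.70% of all genes. Their median log2 ratio of KO label over WT was 0.22 at 39.5 °C and 0.03 at 37 °C. Fermt3, the kindlin-3 gene needed for β chain activation in leukocytes, rose (178 and 237 RPKM in the KO-labelled libraries at 39.5 and 37 °C, 100.2 and 145 RPKM in WT; log2 0.76 ± 0.11 SE, adjusted p = 0.0199). Rasgrp1, an exchange factor downstream of the T cell receptor, rose (13.3 and 19.6 RPKM, against 5.09 and 4.74 RPKM in WT; log2 1.54 ± 0.18, adjusted p = 0.0148), as did the adaptor gene Skap1 (log2 0.82 ± 0.12, adjusted p = 0.0208). Rap1a, the small GTPase gene at the centre of inside-out signalling, fell (6.83 and 7.72 RPKM, against 13.4 and 11.5 RPKM in WT; log2 −0.70 ± 0.14, adjusted p = 0.0383). The other gene that fell was Apbb1ip, which encodes the RAP1 effector RIAM (log2 −0.57 ± 0.13, adjusted p = 0.0460); it was named after its value was seen.

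Of 23 focal adhesion and integrin signalling genes, 18 entered the fit; 3 rose and 1 fell, beside 8.57% and 4.70% of all genes, and the median log2 ratio was 0.19 at 39.5 °C and 0.11 at 37 °C. Those that rose were Bcar1 (log2 1.05 ± 0.24 SE), Lpxn (0.68 ± 0.13) and Nedd9 (0.59 ± 0.12), genes of scaffold proteins, with adjusted p of 0.0453, 0.0328 and 0.0393. Bcar1 was at 1.59 and 4.13 RPKM in the KO-labelled libraries at 39.5 and 37 °C and at 0.683 and 0.833 RPKM in WT, so it too was tested only because it was high under the KO label. Actn1, the α-actinin-1 gene that links integrins to actin, fell (8.02 and 4.74 RPKM in the KO-labelled libraries at 39.5 and 37 °C, 17.4 and 10.4 RPKM in WT; log2 −1.01 ± 0.12, adjusted p = 0.0155).

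Of 27 integrin ligand genes listed, 20 had values, 12 entered the fit, and 3 rose with the label and 0 fell, beside 8.57% and 4.70% of all genes; the median log2 ratio was 0.07 at 39.5 °C and 0.41 at 37 °C. Those that rose were the laminin α5 gene Lama5 (4.68 and 10.9 RPKM in the KO-labelled libraries, 0.569 and 0.945 RPKM in WT; log2 2.24 ± 0.21 SE, adjusted p = 0.0126, a gene tested only because it was high under the KO label), Lgals3bp (log2 1.88 ± 0.12, adjusted p = 0.0062) and the osteopontin gene Spp1 (log2 0.76 ± 0.14, adjusted p = 0.0319). Thy1 was at 242 and 283 RPKM under the KO label and at 327.5 and 181 RPKM in WT, and did not pass (log2 0.10 ± 0.25, adjusted p = 0.801).

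Of 16 other adhesion and homing receptor genes, 15 entered the fit; 5 rose with the label and 0 fell, beside 8.57% and 4.70% of all genes, and the median log2 ratio of KO label over WT was 0.12 at 39.5 °C and 0.11 at 37 °C. Cd226, a receptor for nectin family ligands, was at 5.99 and 11.1 RPKM in the KO-labelled libraries at 39.5 and 37 °C, against 1.25 and 3.00 RPKM in WT. Cd226 (log2 1.61 ± 0.13 SE), Cd2 (1.10 ± 0.20) and Selplg, the selectin ligand gene (0.95 ± 0.13), rose with adjusted p of 0.0090, 0.0288 and 0.0180. The tetraspanin gene Cd82 also rose (0.65 ± 0.11, adjusted p = 0.0267), and was named after its value was seen. In the lists of activators, focal adhesion genes and ligands 0 genes passed for temperature. By the 2-fold rule, the ligand gene Spp1 was higher at 39.5 °C in both labels. So were 0.751% of all genes under the KO label and 1.46% in WT. Spp1 stood at 27.2 and 6.09 RPKM under the KO label at 39.5 and 37 °C. In WT it was at 13.8 and 3.73 RPKM. Its limma change with temperature was 1.82 ± 0.14 SE (adjusted p = 0.0540), against 0.76 with the label. Lama5 was 2-fold lower at 39.5 °C under the KO label, as were 0.911% of all genes.

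**Figure D5:**
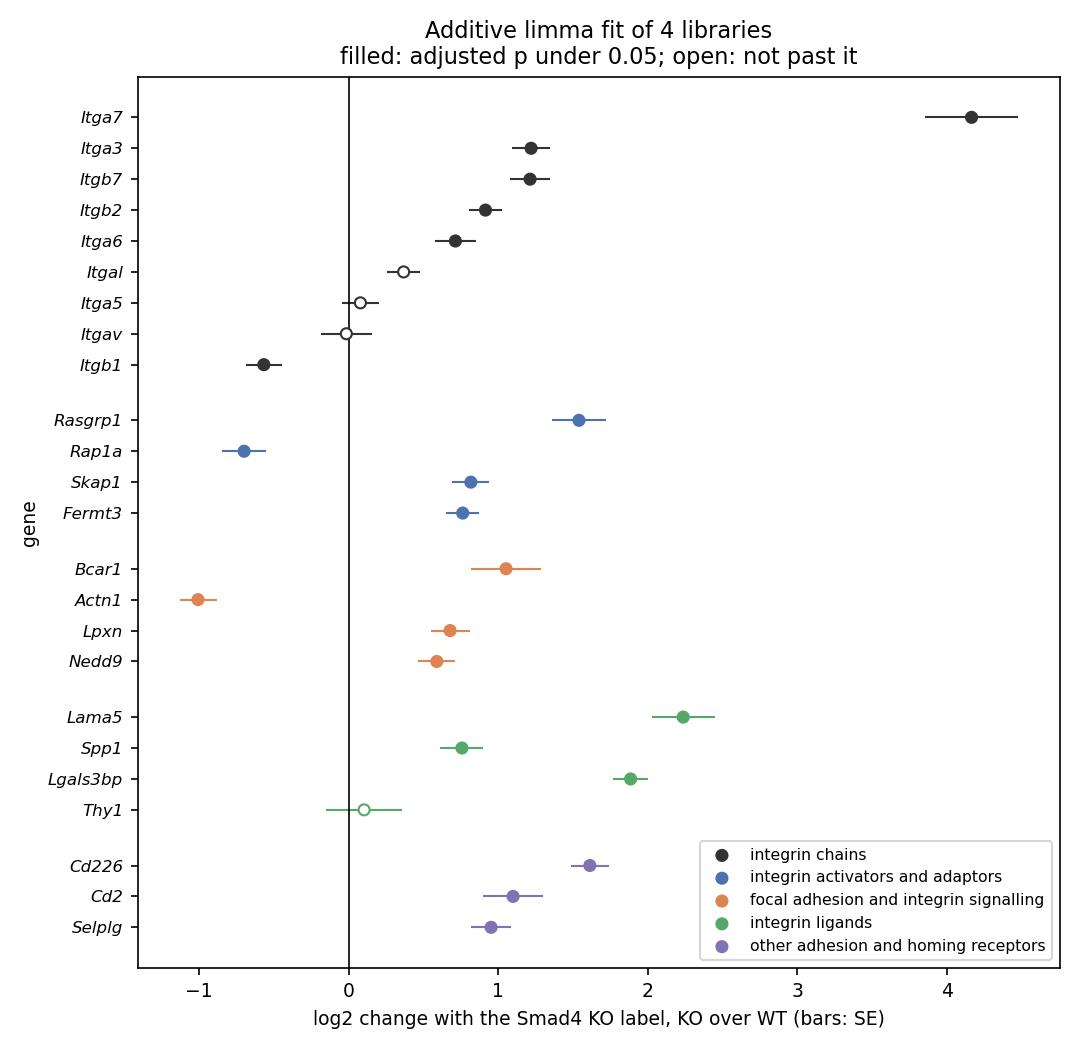
Log2 change with the Smad4 KO label, KO over WT, in the additive limma fit of 4 libraries, for integrin chains and for up to 4 named genes of each related list; bars are SE and filled points have an adjusted p under 0.05. Itga7 at 4.16 lies farthest right. Itgb1, Rap1a and Actn1 lie left of 0, and Itgav, which did not pass the test, lies just left of it at −0.01.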

How the data were processed

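The 4 libraries were mapped to groups by their titles. The authors deposited 1 table of RPKM values per library. The build mm10 and the programs edgeR, Subread with featureCounts, Bowtie2 and Trim Galore 0.4.4 are named, per the submitters' processing notes, with no order or settings. Annotation release and strandedness were not stated in the sources at hand. Bowtie2 does not align reads across introns, so reads over exon junctions may be missing from genes such as the members, with 16 to 32 merged exons.

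Whole reads were recovered by multiplying RPKM by exon length and the library size behind the values: 12053 of 13144 genes matched to GENCODE M21 (91.7%) were whole within 0.01 reads in all libraries at that length, all members among them, and other genes were given the length that made them whole. Counting intervals (95%) cover counting error only, since reads without molecular identifiers may be copies of 1 molecule. The working scale was log2(RPKM + 1), over the 13715 genes with a mean of at least 1 RPKM, a scale that shrinks the change of low genes. The additive fit across all genes used limma 3.58.1 in R 4.3.3 (variance trend, prior of 4.475 degrees of freedom beside 1 residual). It and the read recovery were tested on data simulated with known answers, where the fit found most changes and also called more unchanged genes than its nominal rate. Separate animals or cultures are not stated. The p-values test the label term and the temperature term. Their error is the departure from additivity in these libraries, joined with the prior from all genes, and not the spread between animals or cultures.

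The members and lists were chosen with earlier results of these data known. The text names all members, other integrin chains with a mean of at least 1 RPKM, up to 4 genes per related list (called genes first, then those with the highest absolute ratio) and the 3 nearest patterns of members past 2-fold. Alternatives were another pseudocount, 2 scalings, no minimum mean, a minimum of 5 RPKM, no variance trend and limma-voom. Some genes of the lists are not reported here.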

Additional observations from a re-analysis of the deposited data

Results flagged for a closer look

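Itgae had a ratio of KO label to WT of 0.596 (0.350 to 0.995) at 39.5 °C and 3.10 (1.18 to 9.53) at 37 °C. The label thus went with opposite directions at the 2 temperatures; these ratios rest on 25 reads against 44 at 39.5 °C and 18 against 6 at 37 °C. Itgav, which is no member, likewise had 0.797 (0.701 to 0.905) at 39.5 °C and 1.24 (1.07 to 1.44) at 37 °C. Neither difference between temperatures was tested, because each group had 1 library.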

How the results depend on the processing

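With no minimum mean (19555 genes), 0 members were called for the genotype label by limma, with 8 at an unadjusted p under 0.05, against 5 in the 13715 genes and 5 with limma-voom; the cause was not tested. With a minimum of 5 RPKM or no variance trend 4 members were called; Itga6 was left out of the first by its mean of 4.36 RPKM. The other settings called 5 members. For temperature, 1 member (Itga7) was called with a pseudocount of 0.1, with a minimum of 5 RPKM and with limma-voom, and 0 otherwise. That member entered the fit only through the KO-labelled libraries. With the pseudocount of 0.1, 1 member was past 2-fold for 39.5 over 37 °C in WT. For KO label over WT at 39.5 °C the median was 0.74 with a pseudocount of 0.1 and 0.36 with no minimum. At 37 °C it was 0.49 with no minimum and 0.64 with a minimum of 5 RPKM. For 39.5 over 37 °C it was −0.0002 with no minimum and 0.0026 with a minimum of 5 RPKM under the KO label, and −0.17 with a minimum of 5 RPKM in WT. Over all genes, the calls for the label ranged from 0 with no minimum to 2915 with limma-voom, and those for temperature from 0 (no minimum, or no variance trend) to 353 (limma-voom), against 1820 and 3 as reported. No member past 2-fold changed direction under another pseudocount or scaling. The median difference in temperature ratio between labels, KO minus WT, stayed between −0.16 and −0.06 under alternatives chosen after seeing the data. No paired analysis and no leaving out of a library was possible because each group had 1 library. Genes under 1 RPKM, with 6 to 227 reads among the members, are limited by depth.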
